A study of Homo sapiens with 13 samples.

Results

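Transcripts of the mitochondrial ribosomal proteins were followed in CCRF-CEM cells, an established line from a human leukemia of the T cell lineage. Parental cells (CEM PA) were set against cells resistant to FK866 (CEM RES), a drug that inhibits the NAD+ salvage enzyme NAMPT. The members are all genes whose name in the array files starts with MRPL or MRPS and a digit. These were 78 of the 25940 gene names on the array, measured by 97 probes, and 76 of them encode proteins: 47 named for the large subunit (MRPL) and 29 named for the small subunit (MRPS). The other 2 were MRPL23-AS1, an antisense RNA, and MRPL42P5, a pseudogene, and they were kept apart from the counts.

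RNA of 4 groups was hybridized to 1-colour Agilent arrays, 13 in all, each carrying RNA of 1 sample. There were 3 arrays of mock-treated CEM PA and 2 of CEM PA given 5 nM FK866 for 48 h. CEM RES had 4 arrays under mock conditions and 4 after the same dose and time. The resistant cells are labelled as resistant to 100 nM FK866 and, by the study's methods, were kept under the drug, and their mock samples are therefore cells with a history of exposure. All 13 of 13 T cell markers, among them CD3E and LCK, were well above background on every array of all 4 groups, and EPCAM and CDH1 on none. Other lineages were not silent, since 3 to 4 of 6 B cell, 2 of 6 myeloid and 2 of 5 epithelial markers were also well above background on every array of a group. The myeloid count includes FCGR1A, which was not on the array. The part of these markers in the results was not tested. Of the 43118 spots that were not controls, between 26457 and 33239 were well above background on an array. The labels number the arrays of a group as biological replicates. They do not say whether these came from separate cultures, so p values measure the spread between these arrays only. CEM PA and CEM RES arrays were scanned in different sessions, and cell line and session cannot be told apart. Bulk RNA also cannot tell less RNA per cell from fewer cells that express a gene, and the scaling of arrays to each other hides a change in total RNA.

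The mitochondrial ribosome translates the few proteins encoded by mitochondrial DNA, all of them subunits of oxidative phosphorylation. Its own proteins are encoded in the nucleus, made in the cytosol and imported, and they assemble on rRNA that is transcribed from mitochondrial DNA. Part of them descend from bacterial ribosomal proteins, and the rest were gained by the mitochondrial ribosome. Several of their promoters are known for sites of ETS-family factors such as GABP, of YY1 and of NRF1.

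Promoters of the members are described first, since most members were higher in CEM RES, with 5 stretches printed for members of both directions. Sequences were taken from RefSeq (GRCh38.p14), which gave 84 windows for 68 of the 76 protein genes. No window was found for MRPL2, MRPL10, MRPL13, MRPL15, MRPL21, MRPL23, MRPL35 and MRPS28. A window holds 300 bases, 250 of them before the gene start. The letters CCGGAAG, the core of an ETS site, were found on either strand in 18 of the 50 large subunit windows (36.0%) and in 14 of the 34 small subunit windows (41.2%), against 10.3% of all 35116 windows in the table. The letters AAGATGGCG, a YY1 core, were in 8 (16.0%) and 5 (14.7%) of these windows, against 1.75% of all. The letters CGCNTGCG, the middle of an NRF1 site, were in 12 (24.0%) and 3 (8.82%), against 10.0%, and TATAAA was in 2 (4.00%) and 2 (5.88%), against 11.5%. The ETS and YY1 letters can share the bases AAG, and windows of 1 gene can overlap. A match is a description of letters, not of binding.

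The last 150 bases before the start are given 5′ to 3′ on the strand of the gene for 3 members that were higher and 2 that were lower in CEM RES. Capitals mark the ETS, YY1 and NRF1 letters named above on either strand.
MRPL12 (chr17:81703217-81703366, plus strand): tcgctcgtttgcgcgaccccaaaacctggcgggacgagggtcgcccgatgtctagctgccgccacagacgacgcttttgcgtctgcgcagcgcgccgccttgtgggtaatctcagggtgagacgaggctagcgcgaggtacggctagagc
MRPL52 (chr14:22829737-22829886, plus strand): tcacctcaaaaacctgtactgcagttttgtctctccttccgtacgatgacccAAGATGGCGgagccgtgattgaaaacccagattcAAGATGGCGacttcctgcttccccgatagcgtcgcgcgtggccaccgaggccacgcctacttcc
MRPS21 (chr1:150293711-150293860, plus strand): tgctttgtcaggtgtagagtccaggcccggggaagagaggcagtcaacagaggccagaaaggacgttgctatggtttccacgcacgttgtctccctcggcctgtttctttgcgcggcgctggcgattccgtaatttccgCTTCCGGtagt
MRPL44 (chr2:223957313-223957462, plus strand): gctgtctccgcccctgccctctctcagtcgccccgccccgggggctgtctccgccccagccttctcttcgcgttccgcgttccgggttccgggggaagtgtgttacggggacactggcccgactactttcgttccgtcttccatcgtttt
MRPS9 (chr2:105037919-105038068, plus strand): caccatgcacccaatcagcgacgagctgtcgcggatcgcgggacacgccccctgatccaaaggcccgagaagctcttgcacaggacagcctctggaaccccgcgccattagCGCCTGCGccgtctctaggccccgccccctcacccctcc

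MRPL52 carries the YY1 letters at 2 positions, MRPS21 the ETS letters in reverse, and MRPS9 the NRF1 letters, while the stretches of MRPL12 and MRPL44 hold none of them. The same stretches of MRPL11 and MRPS12 (first of 2 windows), which were higher, and of MRPS6, which was lower, also hold none. They are not printed. The counts that follow are of the whole windows, which are longer than these stretches. Outside its stretch, the window of MRPL44 holds the NRF1 letters and that of MRPL52 the ETS letters. Each window of MRPS12 holds the ETS letters. The whole windows of MRPL12, MRPL11 and MRPS6 hold none of the ETS, YY1 and NRF1 letters. The ETS letters were in 24 of the 57 windows of members that were higher in mock-treated CEM RES (42.1%), in 8 of the 21 windows of members that passed in neither direction (38.1%), and in 0 of the 6 windows of members that were lower. The YY1 letters were in 9 (15.8%), 4 (19.0%) and 0 of the same windows. The NRF1 letters ran the other way, with 10 (17.5%), 3 (14.3%) and 2 (33.3%). With 6 windows of lower members, no difference between directions can be read from these counts.

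In mock-treated cells, transcripts of both subunits were higher in CEM RES than in CEM PA. By limma's moderated test with a Benjamini-Hochberg adjusted p under 0.05 over the 17594 genes tested, 36 of the 47 large subunit genes were higher and 1 was lower. Of the 29 small subunit genes, 17 were higher and 4 lower. All 76 protein genes passed the filter on dim signals. Of all genes tested, 24.7% were higher and 23.0% lower by the same rule, so the share of higher members (76.6% for the large and 58.6% for the small subunit) stood above the background while that of lower members did not. The median log2 fold change was 0.63 for the large and 0.60 for the small subunit, against 0.04 for all genes.

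Most members moved by less than 2-fold. The interquartile range of the log2 fold changes was 0.46 to 0.89 for the large and 0.23 to 0.82 for the small subunit. The double threshold of the study's methods (unadjusted p under 0.05 and absolute log2 fold change over 0.75) was passed by 20 large and 12 small subunit genes, all of them higher in CEM RES, against 17.6% of all genes in this direction. The arrays of both groups did not overlap for 34 large and 20 small subunit genes (72.3% and 69.0%), against 48.8% of all genes tested. Among the 76 genes, 18 passed the adjusted threshold in neither direction.

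**Figure D1:**
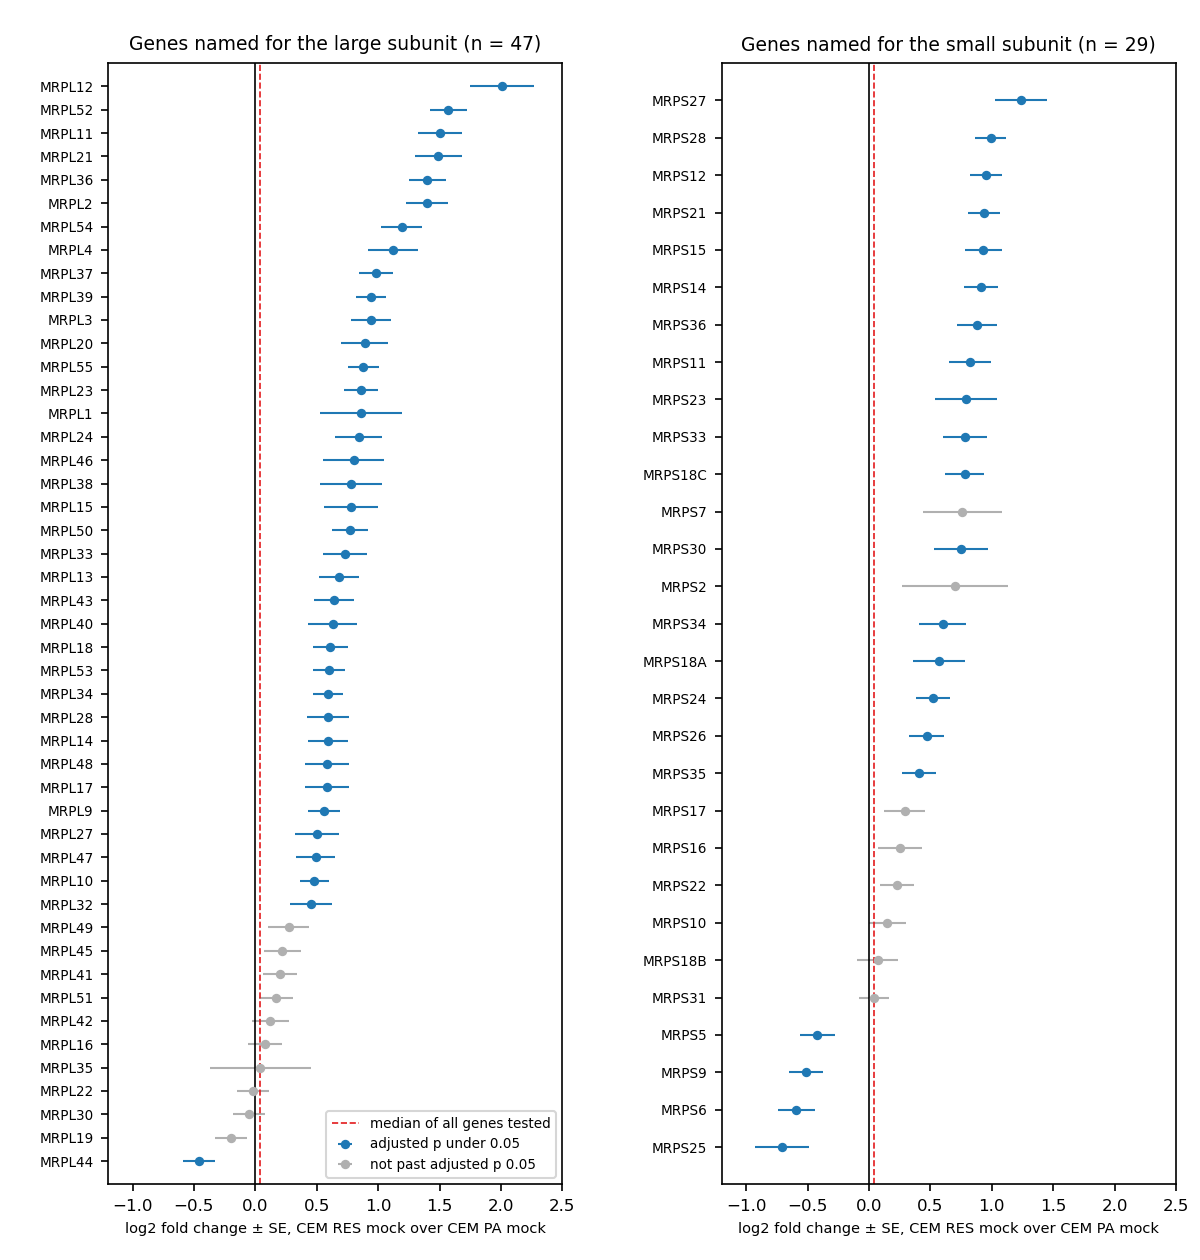
Log2 fold change (x axis, ± SE) of each mitochondrial ribosomal protein gene between mock-treated CEM RES (4 arrays) and CEM PA (3 arrays), the 47 large subunit names left and the 29 small subunit names right, with blue for an adjusted p under 0.05, gray for the others and a red dashed line at the median of all genes (0.04). In both panels most genes lie right of the line, from MRPL12 (2.01) down to MRPS25 (-0.71).

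On single arrays, the same shift was seen as a level. Each gene was centred on its 4 group means, and the median over the genes of a subunit was taken on each array. The large subunit median was -0.35, -0.29 and -0.48 on the mock-treated CEM PA arrays and 0.25, 0.33, 0.44 and 0.21 on the mock-treated CEM RES arrays (log2 scale). The small subunit median was -0.20, -0.22 and -0.40 in CEM PA against 0.08, 0.28, 0.51 and 0.15 in CEM RES. Both sets were separated without overlap, and the median of all genes stayed between -0.04 and 0.09 on every array. Within the mock-treated CEM RES arrays, replicate 3 was highest for both subunits.

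**Figure D2:**
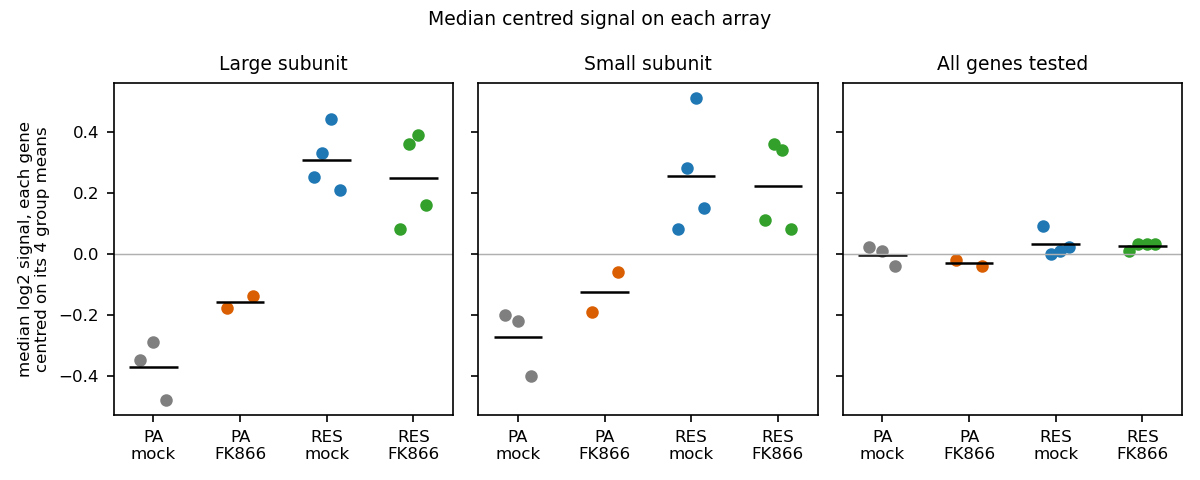
Median log2 signal of the 47 large subunit genes, the 29 small subunit genes and all genes tested on each array (y axis, each gene centred on its 4 group means), with 1 point per array and a bar at the group mean. Every CEM RES array lies above every CEM PA array for both subunits, and the median of all genes lies between -0.04 and 0.09.

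MRPL12, the L7/L12-type stalk protein that helps translation factors bind the ribosome, showed the largest rise (NM_002949, probe at chr17:79674001-79674060 in hg19). Its log2 signal was 10.56, 11.03 and 10.23 in CEM PA mock and 12.39, 12.60, 12.98 and 12.48 in CEM RES mock. The lowest CEM RES array lay above the highest CEM PA array by more than the spread within either line. The difference was 2.01 ± 0.26 (SE), or 4.02-fold (adjusted p = 8.49e-05). A neighbouring probe of MRPL12, which shares most of its target with the first, gave 2.40 ± 0.35.

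MRPL52, a protein that bacterial ribosomes lack, followed with 12.29, 12.38 and 12.50 in CEM PA against 13.92, 13.87, 14.13 and 13.92 in CEM RES (1.57 ± 0.15, adjusted p = 1.14e-05). A dimmer probe of the same MRPL52 transcript gave a smaller rise of 0.72 ± 0.23 (adjusted p = 0.024 in limma's fit of all kept probes). MRPL11, which sits at the base of the stalk, gave 13.59, 13.57 and 13.50 in CEM PA against 14.78, 15.00, 15.40 and 15.05 in CEM RES (1.50 ± 0.18, adjusted p = 4.42e-05). Neither gene overlapped between the lines. MRPL21 (1.49 ± 0.19) and MRPL2 (1.40 ± 0.17), relatives of bacterial L21 and of the bacterial L2 protein near the peptidyl transferase centre, rose to a similar degree, with adjusted p of 7.55e-05 and 6.83e-05.

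In the small subunit, MRPS27 had the largest value, and its probes disagreed. MRPS27 is a pentatricopeptide repeat protein without a bacterial relative. Its brighter probe (NM_015084, chr5:71515797-71515856 in hg19) gave 11.68, 10.96 and 10.74 in CEM PA mock and 12.56, 12.33, 12.36 and 12.24 in CEM RES mock, a difference of 1.24 ± 0.21 (adjusted p = 0.000547). A much dimmer probe was designed to another transcript (AK095964, chr5:71601767-71601826), with a mean log2 signal of 3.8 against 11.92 for the brighter probe. The dimmer probe was lower in CEM RES, with a log2 fold change of -1.87 ± 0.37 (adjusted p = 0.00133 in a fit of all kept probes). Averaged over both probes with equal weight, the log2 fold change of MRPS27 was -0.32 (adjusted p = 0.193), so its rise is a result of the brighter probe.

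The other leading small subunit genes rose by close to 2-fold. MRPS28 (0.99 ± 0.13), MRPS12 (0.95 ± 0.13), MRPS21 (0.94 ± 0.13) and MRPS15 (0.93 ± 0.15) had adjusted p values between 8.03e-05 and 0.000392. MRPS12, a relative of bacterial S12 at the decoding centre, gave 13.78, 13.78 and 14.08 in CEM PA against 14.88, 14.71, 14.82 and 14.88 in CEM RES. MRPS21, whose promoter stretch with the ETS letters is printed above, gave 13.42, 13.57 and 13.44 in CEM PA against 14.27, 14.30, 14.58 and 14.52 in CEM RES. Neither gene overlapped between the lines.

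Of the 8 members with a log2 fold change below 0, 5 were lower past the adjusted threshold. MRPS25, a mitochondria-specific protein, had the largest decrease but overlapping groups: 10.32, 10.46 and 10.87 in CEM PA against 9.86, 10.38, 9.63 and 9.49 in CEM RES (-0.71 ± 0.22, adjusted p = 0.0182). It lost its call without CEM PA mock replicate 3 (adjusted p = 0.084) and without CEM RES mock replicate 4 (adjusted p = 0.0514). MRPS6, a relative of bacterial S6, gave 14.57, 14.37 and 14.70 against 14.07, 13.98, 13.83 and 13.93 (-0.59 ± 0.15, adjusted p = 0.00569). MRPS9, a relative of bacterial S9, gave 12.97, 12.74 and 12.62 against 12.07, 12.33, 12.43 and 12.22 (-0.51 ± 0.14, adjusted p = 0.00888). The arrays of MRPS6 and MRPS9 did not overlap. MRPS5 was lower by its brighter probe (-0.42 ± 0.14, adjusted p = 0.0266), while its second probe gave 0.28 ± 0.15. The call of MRPS5 was lost in 7 of 24 alternatives, with log2 fold changes from -0.53 to -0.07 and an adjusted p of up to 0.674. Among these were the settings without CEM PA mock replicate 1 (adjusted p = 0.104), without CEM PA mock replicate 3 (adjusted p = 0.0682) and without CEM RES mock replicate 4 (adjusted p = 0.0524). The only large subunit gene past the adjusted threshold in this direction, MRPL44 (-0.46 ± 0.13, adjusted p = 0.0109), is described with FK866 below.

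**Figure D3:**
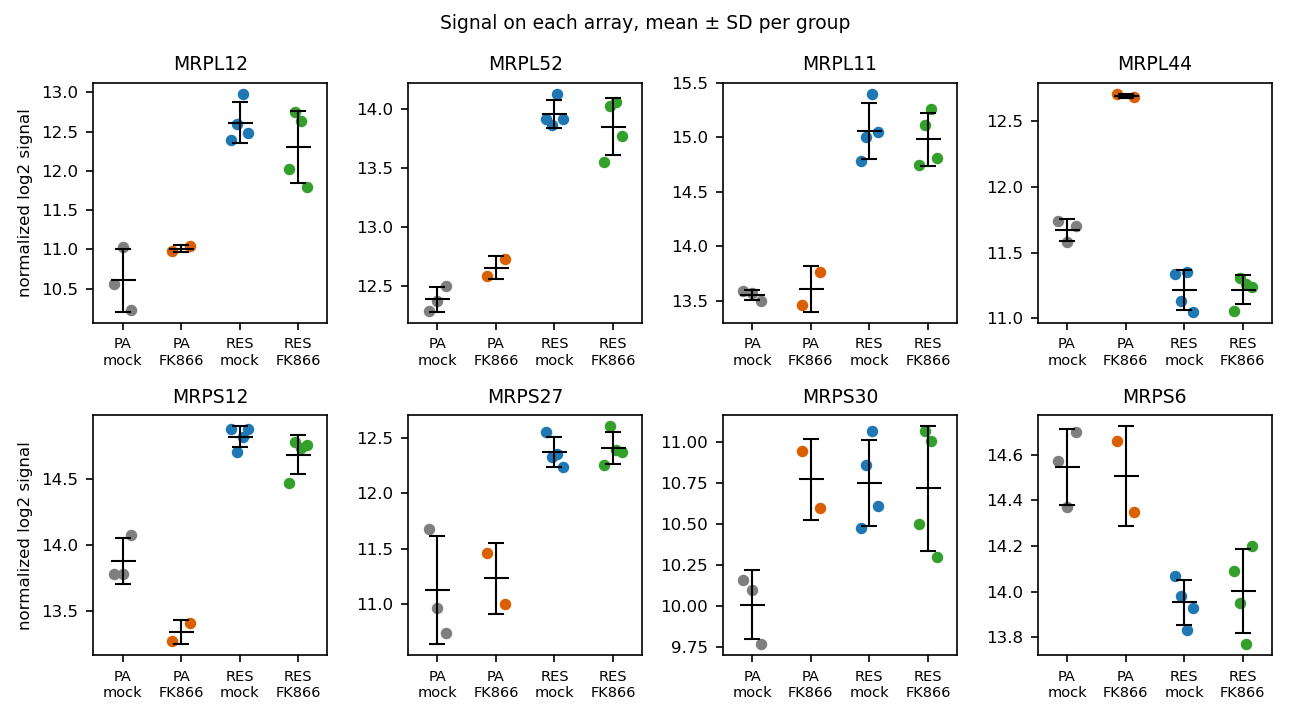
Quantile-normalized log2 signal (y axis) of 8 named members on each array in the 4 groups, with 1 point per array and bars for the mean ± SD (n = 3, 2, 4 and 4 arrays). MRPL12, MRPL52, MRPL11, MRPS12 and MRPS27 lie higher in both CEM RES groups and MRPS6 lower, MRPL44 stands out in CEM PA with FK866, and MRPS30 is lowest in mock-treated CEM PA.

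Names do not always tell the place in the ribosome. MRPS30 and MRPS18A are known to sit in the large subunit, and they rose with it. MRPS30 rose by 0.75 ± 0.22 (adjusted p = 0.0141, and 0.0614 without CEM PA mock replicate 3). MRPS18A rose by 0.57 ± 0.21 (adjusted p = 0.0405), with overlapping groups. The call of MRPS18A was lost in 12 of 24 alternatives, with an adjusted p of up to 0.19. The 3 relatives of bacterial S18 did not share a value. MRPS18C, the small subunit form most like S18, rose by 0.78 ± 0.16 (adjusted p = 0.00195), whereas MRPS18B, also of the small subunit, gave 0.07 ± 0.17 (adjusted p = 0.769). A dimmer probe of MRPS18B gave 1.44 ± 0.29 (adjusted p = 0.00146). MRPS36, since reassigned to the 2-oxoglutarate dehydrogenase complex, rose by 0.88 ± 0.16 (adjusted p = 0.000866).

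Members with and without bacterial relatives had similar medians in mock-treated cells. Of the 48 with relatives, all 3 forms of S18 among them, 34 were higher and 3 lower, with a median log2 fold change of 0.65. Of the 27 without, 18 were higher and 2 lower, with a median of 0.60. Among the small subunit names the medians were 0.64 for 18 genes with relatives and 0.53 for 10 without. The fixed lists follow the ribosome nomenclature, which sets MRPS18A and MRPS18B apart from bacterial S18, and give 0.73 for 16 and 0.52 for 12 genes. Both were moved after the values were seen, and MRPS36 is in neither class.

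By position of the probe, members rose on most chromosomes but less so on chromosome 2. All 8 members on chromosome 1 were higher, with a median of 0.90. Of the 8 members on chromosome 2, 2 were higher and 3 lower (MRPL44, MRPS9 and, by the call that several alternatives lose, MRPS5), with a median of -0.13. The other genes tested had a median of 0.10 on chromosome 1 (1786 genes) and of -0.04 on chromosome 2 (1114 genes), where 21.6% were higher and 29.3% lower. These 2 chromosomes were picked after the values were seen.

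Members with more than 1 probe showed how far a single probe can be relied on. Of the 95 probes of the protein genes, 94 were kept, and 17 genes had more than 1 kept probe. In 12 of these 17 genes all kept probes lay on the same side of 0 between mock-treated lines, but the median range between probes of a gene was 0.70 on the log2 scale. The probes of MRPL19 spanned most after those of MRPS27. Its brightest probe gave -0.20 ± 0.13, and the other two gave -1.61 ± 0.23 and 0.20 ± 0.21. The single probe of MRPL23-AS1 was well above background on 0 of the 13 arrays. MRPL42P5 passed the filter and gave 0.19 ± 0.47 (adjusted p = 0.761).

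When both lines were exposed to FK866, the difference between them remained in the same direction but was smaller. CEM RES was higher in 19 large and 11 small subunit genes (40.4% and 37.9%, against 18.6% of all genes) and lower in 2 and 2 (against 16.9%). The double threshold was passed by 11 large and 6 small subunit genes that were higher (15.4% of all genes) and by MRPL44 alone among those lower (14.1%). The median log2 fold changes were 0.43 and 0.38, against 0.09 for all genes. The excess over all genes depended on the scaling: after scaling of the arrays by their 75th percentile, the medians of the large and small subunit were 0.36 and 0.29 while that of all genes was 0.22, a surplus of 0.14 and 0.07 in place of 0.34 and 0.29. In mock-treated cells the surplus was 0.53 and 0.52 with that scaling and 0.59 and 0.56 without it.

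Of the 53 members higher in CEM RES under mock conditions, 28 (52.8%) were also higher under FK866, and these were 93.3% of the 30 members higher there. Over all genes, 24.7% were higher under mock conditions and 18.6% under FK866. Their overlap was not counted, so the overlap of the members cannot be read as particular to them. Among the members higher under FK866, MRPL11 (1.37 ± 0.20), MRPS12 (1.34 ± 0.15) and MRPL12 (1.29 ± 0.29) led, with adjusted p of 0.000353, 7.93e-05 and 0.00504. MRPL44, MRPS6 and MRPS9 were lower in both conditions. With only 2 CEM PA arrays under FK866, the count of 34 members called in either direction fell to 17 without replicate 1 and to 21 without replicate 2 of this group.

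Exposure of CEM PA to FK866 moved few members past the adjusted or the double threshold. An unadjusted p under 0.05 in limma's test was found for 17 of the 76 (22.4%, 14 higher and 3 lower), against 13.5% of all genes. With the replicate number as a block these were 22 members (28.9%), against 22.6% of all genes. MRPL44 was the only 1 of the 76 with an adjusted p under 0.05, against 0.392% of all genes that rose. MRPL44, a mitochondria-specific large subunit protein related to RNase III, gave 11.74, 11.58 and 11.70 in mock-treated CEM PA and 12.70 and 12.68 with FK866 (NM_022915, probe at chr2:224831754-224831813 in hg19). Both FK866 arrays lay well above all mock arrays, and the rise was 1.02 ± 0.15, or 2.02-fold (adjusted p = 0.0154). In CEM RES the gene gave 11.34, 11.13, 11.35 and 11.05 under mock conditions and 11.06, 11.31, 11.26 and 11.24 with FK866, with overlapping groups and an adjusted p of 1.0. The difference between both responses was -1.02 ± 0.19 and did not pass the adjusted threshold (adjusted p = 0.096, and from 0.0199 to 0.386 in the alternatives). Under FK866, MRPL44 differed 2.78-fold between the lines, with the lower level in CEM RES (-1.47 ± 0.14, adjusted p = 3.71e-05). The adjusted p of the rise in CEM PA was 0.129 without FK866 replicate 1, 0.159 without FK866 replicate 2 and 0.0692 without mock replicate 2, with log2 fold changes between 0.97 and 1.03.

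The double threshold was passed in CEM PA by MRPL44, by MRPL1 (0.85 ± 0.39, adjusted p = 0.37), a relative of the bacterial L1 stalk protein, and by MRPS30 (0.76 ± 0.26, adjusted p = 0.219) in limma's test, against 2.5% of all genes that rose. MRPS30 gave 10.16, 10.10 and 9.77 under mock conditions and 10.95 and 10.60 with FK866, and the groups did not overlap. Its FK866 arrays in CEM PA lay within the range of the CEM RES arrays (10.30 to 11.07). With the replicate number as a block, 1 member passed the double threshold in place of 3.

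In CEM PA the medians of both subunits lay above that of all genes by less than between the mock-treated lines. Log2 fold changes were above 0 for 38 of the 47 large subunit genes and for 17 of the 29 small subunit genes, with medians of 0.21 and 0.11 against -0.02 for all genes. The surplus over all genes was 0.23 and 0.13, and 0.37 and 0.23 with 75th percentile scaling, where 43 large and 23 small subunit genes lay above the median of all genes in place of 39 and 17. With the replicate block the medians were 0.15 and 0.03, against -0.04 for all genes. On single arrays the large subunit median was -0.18 and -0.14 with FK866, above all 3 mock arrays, whereas that of the small subunit was -0.19 and -0.06 and the lower of these lay beside the highest mock array (-0.20). Arrays did not overlap for 24 large and 11 small subunit genes (51.1% and 37.9%, against 34.4% of all genes). Within the first scan session (1 FK866 against 1 mock array) the medians were 0.19 and 0.08, and within the second (1 against 2) they were 0.23 and 0.15. Among the large subunit names the 30 genes with bacterial relatives had a median of 0.20 and the 17 without 0.27. Among the small subunit names the 18 genes with bacterial relatives had a median of -0.03 and the 10 without 0.29. These names include 2 proteins of the large subunit, MRPS18A (-0.20) among the 18 and MRPS30 (0.76) among the 10. MRPS12 had the lowest value (-0.53 ± 0.16, adjusted p = 0.165).

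In CEM RES, FK866 moved no member past a threshold. Of the 76 members, 0 passed the adjusted p in limma's test (0.0% of all genes), 0 the double threshold (1.34% of all genes) and 0 an unadjusted p under 0.05, which 841 of all genes (4.78%) had. With the replicate number as a block these counts were 0 for the members as well, the lowest adjusted p was 0.504, and 10.1% of all genes had an unadjusted p under 0.05. No member had groups that did not overlap, against 2.52% of all genes. The medians were -0.04 and -0.04, against -0.01 for all genes, and the log2 fold changes lay between -0.31 and 0.54. Within the first CEM RES slide (2 against 2 arrays) the medians were -0.07 and -0.10, and within the other slide they were 0.01 and 0.01.

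**Figure D4:**
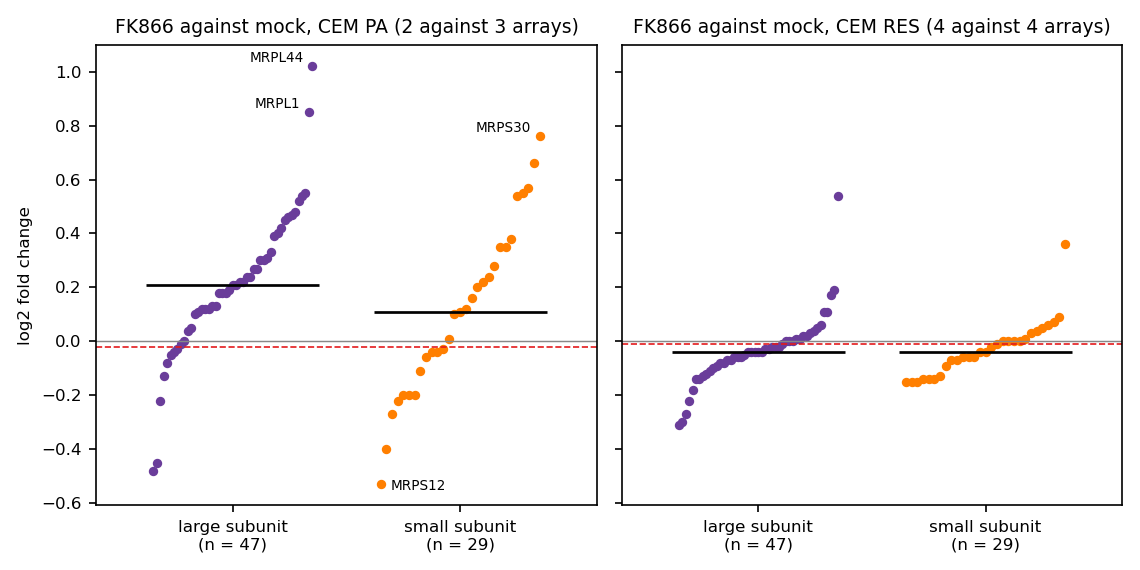
Log2 fold change of each mitochondrial ribosomal protein gene between FK866 and mock (y axis) in CEM PA (left) and CEM RES (right), by subunit name, with points ordered by value, black bars at the median and a red dashed line at the median of all genes. In CEM PA the medians are 0.21 and 0.11 and MRPL44 reaches 1.02, while in CEM RES both medians are -0.04.

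The responses of both lines were also compared directly. None of the members differed at an adjusted p under 0.05 in limma's test (0.131% of all genes did), 11 (14.5%, against 11.1% of all genes) had an unadjusted p under 0.05, and 3 passed the double threshold with a smaller response in CEM RES (3.1% of all genes). The median difference between responses was -0.25 for the large and -0.10 for the small subunit, against 0.00 for all genes, and it was below 0 for 39 and 18 genes. With 75th percentile scaling it was -0.36 and -0.25, against 0.01 for all genes, and 43 and 23 genes lay below the median of all genes. With the replicate block, 17 members (22.4%, against 21.2% of all genes) had an unadjusted p under 0.05. The comparison of mock-treated lines and the response of CEM PA share the mock-treated CEM PA arrays, and the difference between responses uses all 4 groups, so these values are not independent of each other.

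Other genes of mitochondrial translation were read from fixed lists. Of the 7 ribosomal proteins with other names, 3 were higher (42.9%, against 24.7% of all genes) and 1 lower (against 23.0%) in mock-treated CEM RES. GADD45GIP1 (1.27 ± 0.17, adjusted p = 0.000105) and AURKAIP1 (0.87 ± 0.15, adjusted p = 0.000543) rose, as did ICT1 (0.84 ± 0.13, adjusted p = 0.000234), a peptidyl-tRNA hydrolase within the large subunit. PTCD3 fell (-0.54 ± 0.19, adjusted p = 0.0316), and DAP3 (-0.33), MRP63 (0.11) and CHCHD1 (0.16) did not pass. The median of these 7 genes was 0.16.

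Of 19 tested genes on the list of mitochondrial translation factors, 11 were higher (57.9%, against 24.7% of all genes) and 0 lower (against 23.0%). Their median was 0.58. The list also holds genes that are not translation factors, SLIRP among them, so the share is that of the list. SLIRP, which binds mitochondrial mRNAs together with LRPPRC, was the highest at 3.43 ± 0.20 (adjusted p = 5.9e-07). MRRF, the ribosome recycling factor, rose by 1.21 ± 0.23 (adjusted p = 0.00103), and C12orf65, a release factor-like protein, by 1.12 ± 0.34 (adjusted p = 0.0167). Under FK866 8 of the 19 were higher in CEM RES (42.1%, against 18.6% of all genes), with SLIRP at 2.97.

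Among 24 tested genes of ribosome assembly and rRNA modification, 10 were higher (41.7%, against 24.7% of all genes) and 4 lower (against 23.0%), with a median of 0.27. ERAL1, an rRNA chaperone of the small subunit, rose by 1.42 ± 0.21 (adjusted p = 0.000184), and the GTPase GTPBP5 (1.33 ± 0.32) and RPUSD3 (1.27 ± 0.16), a pseudouridine synthase-like protein, rose too. MTERFD2, a partner of the rRNA methyltransferase NSUN4, fell (-1.31 ± 0.18, adjusted p = 0.000151), with FTSJ2 (-0.99 ± 0.30) and WBSCR16 (-0.67 ± 0.21) behind it. With FK866 in CEM PA, TFB1M, which methylates the rRNA of the small subunit, was the only gene of this list to pass the adjusted threshold (-1.07 ± 0.20, adjusted p = 0.0489). Of all genes, 0.119% fell by this rule. The adjusted p of TFB1M lies just under the threshold and rests on 2 FK866 and 3 mock arrays.

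Of 15 tested genes of mitochondrial DNA maintenance and transcription, 5 were higher (33.3%, against 24.7% of all genes) and 0 lower (against 23.0%) in mock-treated CEM RES, with a median of 0.20. TFAM, which packages mitochondrial DNA and starts its transcription, rose by 2.67 ± 0.27 (adjusted p = 1.6e-05). C10orf2, the Twinkle helicase, rose by 1.29 ± 0.45 (adjusted p = 0.0318) and SSBP1, the mitochondrial single-stranded DNA-binding protein, by 1.23 ± 0.18 (adjusted p = 0.000194). POLRMT, the mitochondrial RNA polymerase, gave -0.07 ± 0.15 (adjusted p = 0.718). Of the 83 tested proteins of the cytosolic ribosome, 26 were higher (31.3%, against 24.7% of all genes) and 7 lower (against 23.0%), with a median of 0.15.

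**Figure D5:**
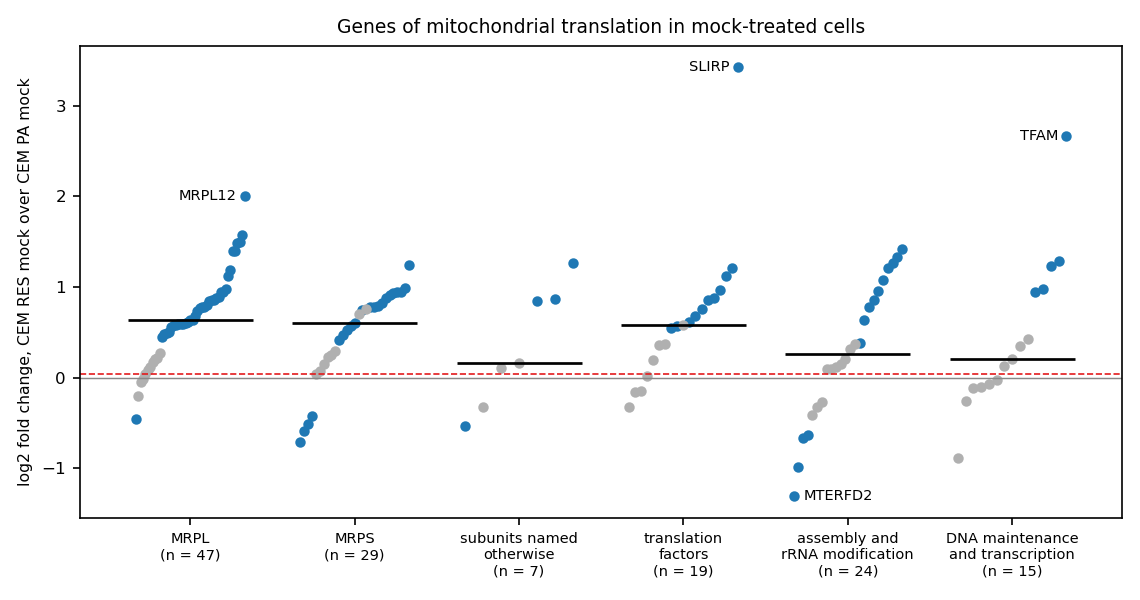
Log2 fold change between mock-treated CEM RES and CEM PA (y axis) for the mitochondrial ribosomal proteins and 4 lists of other mitochondrial translation genes, with 1 point per gene, blue for an adjusted p under 0.05, black bars at the median and a red dashed line at the median of all genes (0.04). The medians of MRPL, MRPS and the list of translation factors lie between 0.58 and 0.63, with SLIRP at 3.43, TFAM at 2.67 and MRPL12 at 2.01 above the rest of their lists.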

How the data were processed

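RNA of 13 samples was measured on 1-colour Agilent arrays with hg19 probe positions. The authors deposited spot intensities from Feature Extraction, with the background already subtracted per array, and a table of log2 values that they quantile normalized. From the intensities, control spots were removed, outlier spots set to missing, values put on the log2 scale and quantile normalized, and spots of a probe averaged (R 4.3.3, limma 3.58.1, Python 3.11.15, pandas 2.3.3). A probe was kept if all arrays of any 1 group had it well above background (22751 of 34127 probes), and the brightest kept probe stood for its gene. One limma model with 4 groups was fitted on 17594 genes, and p values are from its moderated test, two-sided. Arrays give no read depth, and their number sets the precision.

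The members and lists were chosen with earlier results of these data known. Named are, for each subunit, up to 5 rises and 5 falls between mock-treated lines (adjusted p under 0.05, groups not overlapping), members past a threshold with FK866, members whose probes disagree or whose names mislead, and up to 3 genes of a list in each direction. MRPL19, MRPS25, TFB1M, POLRMT and the cytosolic ribosomal proteins were added after their values were seen. Alternatives covered scaling, background correction, filters, the deposited table, probe averaging, blocks, array weights and leaving out each array. Deviations of mock and FK866 arrays with equal replicate numbers correlated at 0.440 and 0.342 in CEM PA and at 0.217 to 0.484 in CEM RES. Arrays with unequal numbers were not compared, and several of these pairs shared a slide. The correlations therefore cannot show that the numbers pair the arrays, and the replicate block is an alternative only. The class of MRPS18A and MRPS18B and blocked counts of unadjusted p were added after the data were seen. The procedure was tested on simulated data.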

Additional observations from a re-analysis of the deposited data

Results flagged for a closer look

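Among 40 groups of 4 arrays examined for the named members, 2 held an array that stood apart from the other 3 by more than Dixon's critical value, the number that chance gives (5% of groups). In CEM RES with FK866, MRPS12 was 14.47 on replicate 1 against a median of 14.76 on the others, and MRPS5 was 14.21 on replicate 2 against 14.42.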

How the results depend on the processing

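The count of 58 members called between mock-treated lines lay between 50 and 58 under the other settings and between 41 and 59 with 1 array left out, and 36 of the 58 passed under every one of 24 alternatives. In this comparison the median of all genes was 0.16 with 75th percentile scaling in place of 0.04. With FK866 in both lines, 34 members became 17 to 35 with 1 array left out. For FK866 in CEM PA, the member called became 0 when only the groups compared were fitted and 0 to 1 with 1 array left out, and the 3 past the double threshold became 1 with normexp background correction, 1 with scan session as a block, 1 with the replicate block, and 1 to 3 with 1 array left out. For the difference between responses, 0 became 1 (MRPL44) with normexp correction and 1 (MRPL44) with array quality weights, and the 3 past the double threshold became 5 with 75th percentile scaling, 1 with array weights and 1 to 5 with 1 array left out. MRPS27 became -0.32 when its probes were averaged, and MRPS18B became -0.03 in the deposited table and -0.10 to 0.19 with 1 array left out; the causes were not tested. With the replicate block, 56 members were called between mock-treated lines and 29 between lines under FK866, and MRPS18A lost its call. Between lines this block tied arrays of equal number from different scan sessions, for which the labels give no pairing. The counts between lines are therefore no check of the line difference. For FK866 in CEM PA, 1 member was called with the block.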
